A study of Mus musculus with 10 samples.

Results

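The 5 arrays compared here hold RNA of mouse embryonic fibroblast (MEF) lines that had all been heated. They are 2 arrays of the line labelled (+/+), called rescue, and 3 arrays of the line labelled (-/-) for hsp70, called knockout (KO), out of 10 arrays in the series. They were chosen by their labels alone, which give both lines as preshocked, that is, kept at 43 °C for 30 minutes and then returned to the incubator for 3 hours. The other 5 arrays, 2 rescue and 3 KO, are the same lines left unheated, and they are used here for the spread and to set the line difference of heated cells beside that of unheated cells. The labels do not say how the rescue was made, whether each line is 1 clone, or whether the arrays of a group came from separate cultures, so a p-value here reflects only how these arrays scatter, which may be technical. RNA of 144 wells was pooled for each array. Arrays carry adjoining numbers in the labels, 1 preshocked and 1 unheated array of the same line in each such pair.

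Hsp70 is a chaperone that binds unfolded stretches of protein and releases them through cycles of ATP hydrolysis, helped by J-domain cochaperones and nucleotide exchange factors. Its inducible form in the mouse is made from a pair of nearly identical genes, Hspa1a and Hspa1b, which are almost silent in unstressed fibroblasts. Heat activates heat shock factor 1 (HSF1), which binds repeats of the unit nGAAn and switches on these genes with other chaperone genes. Hsp70 in turn binds HSF1 and is known to damp this response. The comparison of the preshocked lines asks which transcripts differed between cells labelled as having and as lacking hsp70 after the same preshock.

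After preshock, Hspa1b signal went against the KO label. Deposited intensities of Hspa1b, on the linear scale of the array, were 36889 and 29210 in the preshocked rescue arrays and 16853, 22815 and 29562 in the preshocked KO arrays for the first of its 3 probe sets. The same probe set averaged 229 ± 46.6 (SD, n = 2) in unheated rescue arrays and 79.5 ± 23.5 (SD, n = 3) in unheated KO arrays, so it was high after preshock in the line labelled as lacking hsp70 as well. None of its 3 probe sets was called between the unheated lines (adjusted p = 0.241, 0.317 and 0.630). After normalization the rescue minus KO difference of the preshocked arrays was 0.28 (95% interval -0.56 to 1.13) on the log2 scale for this probe set (adjusted p = 0.881). It was 0.38 (interval -0.48 to 1.25, adjusted p = 0.837) and -0.13 (interval -1.21 to 0.94, adjusted p = 0.964) for the other probe sets of the gene. These adjusted p-values are from limma over 45037 probe sets, of which 18 (0.04%) were called. The 3 probe sets lay between percentiles 99.56 and 99.96 of the arrays' values, near the top of the scale, where a difference can be compressed. The 1 probe set of Hspa1a read between 6.31 and 22.1 in all 5 preshocked arrays, and the labels and files do not say which part of the locus was deleted. The arrays cannot tell transcripts of these near-identical genes apart with certainty, nor whether a transcript is whole. The lines are therefore named by their labels below, and every direction depends on labels that Hspa1b does not bear out.

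The promoter of Hspa1b is shown because heat shock factors are known to act on it. It spans chr17:34959189-34959488 on the minus strand of GRCm38.p6 (RefSeq), from 250 bases before to 50 bases after the gene's start, and capitals mark the match to GAANNTTC, an inverted pair of heat shock units.
Hspa1b: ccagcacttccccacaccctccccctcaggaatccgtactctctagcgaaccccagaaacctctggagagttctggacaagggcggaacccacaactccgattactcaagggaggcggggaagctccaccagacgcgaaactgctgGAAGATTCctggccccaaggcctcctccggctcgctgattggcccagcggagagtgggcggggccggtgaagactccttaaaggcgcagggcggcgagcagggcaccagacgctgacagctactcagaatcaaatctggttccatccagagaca
The motif, searched as GAANNTTC and TTCNNGAA, which both read the same on either strand, was present in 15.1% of 27025 promoters of this length and in 11.3% of the 8912 promoters that belong to tested genes. It was present in 6 of 12 promoters of the heat-responsive genes described below, namely Hspa1b, Hsph1, Bag3, Hspb1, Hspb8 and Zfand2a. It was in 0 of the 25 promoters found for genes that differed between the preshocked lines, which says only that these letters are not in those windows.

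Other heat-responsive genes were also at similar levels in both preshocked lines, and none of them was called. Hspa8, the constitutive Hsp70, differed by 0.02 on the log2 scale (95% interval -0.33 to 0.37), and its nucleotide exchange factor Hsph1 by 0.11 (-0.39 to 0.62). Dnajb1, the J-domain protein that works with Hsp70 on aggregates, differed by -0.05 (-0.47 to 0.37). Its heat-inducible relative Dnajb4 differed by -0.20 (-0.59 to 0.19). Bag3, an exchange factor that couples Hsp70 to selective autophagy, differed by -0.12 (-0.55 to 0.31). The small heat shock proteins Hspb1 and Hspb8 differed by 0.07 (-0.58 to 0.73) and 0.06 (-0.34 to 0.46). Hsp90aa1, the inducible cytosolic Hsp90, differed by -0.12 (-0.60 to 0.35). Zfand2a, a heat- and arsenite-inducible zinc finger protein of the proteasome pathway, differed by 0.07 (-0.34 to 0.48). For these 9 genes, with the probe set of highest mean, every interval lay within 1 log2 unit of 0. With quantile normalization a doubling or halving of that signal in either direction was therefore outside it. That bounds the signal rather than the transcript, since several of these genes, like Hspa1b, read near the top of the scale (the highest normalized value was 15.41), where differences can be compressed. The values also depend on the scaling: the same 9 differences ran from -0.17 to 0.35 with the deposited scaling and from 0.30 to 0.82 with arrays centred on their median. They depend on the probe set too, and ran from -0.62 to 0.15 with the mean of a gene's probe sets. Of the other Hspa8 probe sets, 1 differed by -0.72 (-2.11 to 0.67), 1 by -0.24 (-2.07 to 1.59) and 1 by 0.02 (-0.44 to 0.48). The other Hsp90aa1 probe sets ran from -1.63 (-3.77 to 0.50) to 0.02 (-0.54 to 0.59). None of the 9 genes was called under any alternative tried.

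Of the heat-responsive genes outside the chaperone system, none was called either. Atf3, a stress-induced transcription factor, differed by -0.38 (-1.24 to 0.47), and Fosb, an immediate early gene, by 0.11 (-0.71 to 0.94). Cpn1, a carboxypeptidase subunit, differed by -0.52, with an interval that ended just below 0 (adjusted p = 0.351). Deposited intensities of this probe set were 227 and 252 in rescue and 355, 371 and 374 in KO arrays. The second Cpn1 probe set differed by -1.11 (-2.11 to -0.12, adjusted p = 0.618 by limma over all probe sets). Sprr1a, a cornified envelope precursor, differed by -0.73 (-1.67 to 0.21), with 274 and 256 in rescue and 613, 375 and 418 in KO arrays. Both genes were lower in the 2 rescue arrays than in all 3 KO arrays, but neither difference passed the test. These 13 genes were picked after their values were seen.

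**Figure D1:**
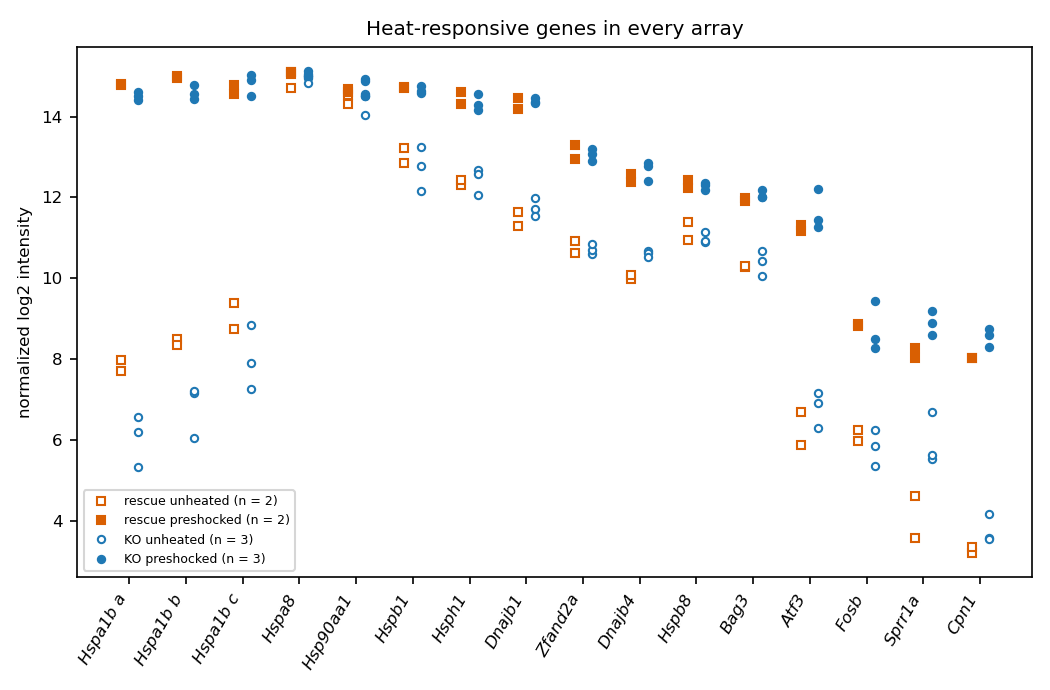
Normalized log2 intensity (vertical axis) of the 3 Hspa1b probe sets and 13 heat-responsive genes (horizontal axis) in each of the 10 arrays, squares for rescue-labelled and circles for KO-labelled, filled for preshocked and open for unheated. The filled symbols of both lines lie close together for the chaperone genes, whose line differences ran from -0.20 to 0.11, while the open symbols of Hspa1b are higher in both rescue arrays than in all KO arrays for probe sets a and b and overlap for c.

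The chaperone lists held no call either. None of the 12 tested genes of the Hsp70 and Hsp110 family was called, and their median difference was 0.0029, beside a median of -0.013 over all 10916 genes tested. Of the family, Hspa13, an Hsp70 of the endoplasmic reticulum, differed by -0.48 (adjusted p = 0.246) and Hspa4l by 0.42 (adjusted p = 0.255). None of 21 Hsp70 cochaperones was called (median -0.051), where Bag2, a partner of the ubiquitin ligase CHIP, differed by 0.39 (adjusted p = 0.323). None of 11 genes of the Hsp90 machinery was called (median -0.12). Its largest difference was -0.98 for the myosin chaperone Unc45a (adjusted p = 0.248), and that of Fkbp5, an immunophilin and glucocorticoid receptor cochaperone, was -0.69 (adjusted p = 0.256). No call was made among 5 small heat shock proteins (median -0.060), 12 other heat-inducible genes (median 0.020), 2 heat shock factor genes (median 0.0013) or 19 endoplasmic reticulum chaperone and unfolded protein response genes (median 0.083).

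The transcripts called between the preshocked lines were of other kinds, in a fit that treated the 10 arrays as independent. Of 10916 genes tested, 37 (0.339%) were called at an adjusted p under 0.05, 11 (0.101%) higher and 26 (0.238%) lower in rescue. All 37 differed by at least 2-fold, as did 5.4% of all genes tested, and the rescue arrays did not overlap the KO arrays for any of them, in deposited as well as normalized values. Non-overlap alone was seen for 33% of all genes tested, and 1536 genes (14.1%) had an unadjusted p under 0.05, 7.34% of all genes being higher and 6.73% lower. Differences ran from -4.79 to 2.79 on the log2 scale. The call count depended on how the spread was estimated: 16 genes (6 higher, 10 lower), 15 of them among the 37, were called with the pairs of adjoining array numbers as a random block. Without rescue preshocked replicate 1 no gene was called (1220 at an unadjusted p under 0.05), although all 37 kept their direction. With arrays centred on their median instead of quantile normalized, 22 genes were called, 15 higher and 7 lower, and the median of all genes moved to 0.42.

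**Figure D2:**
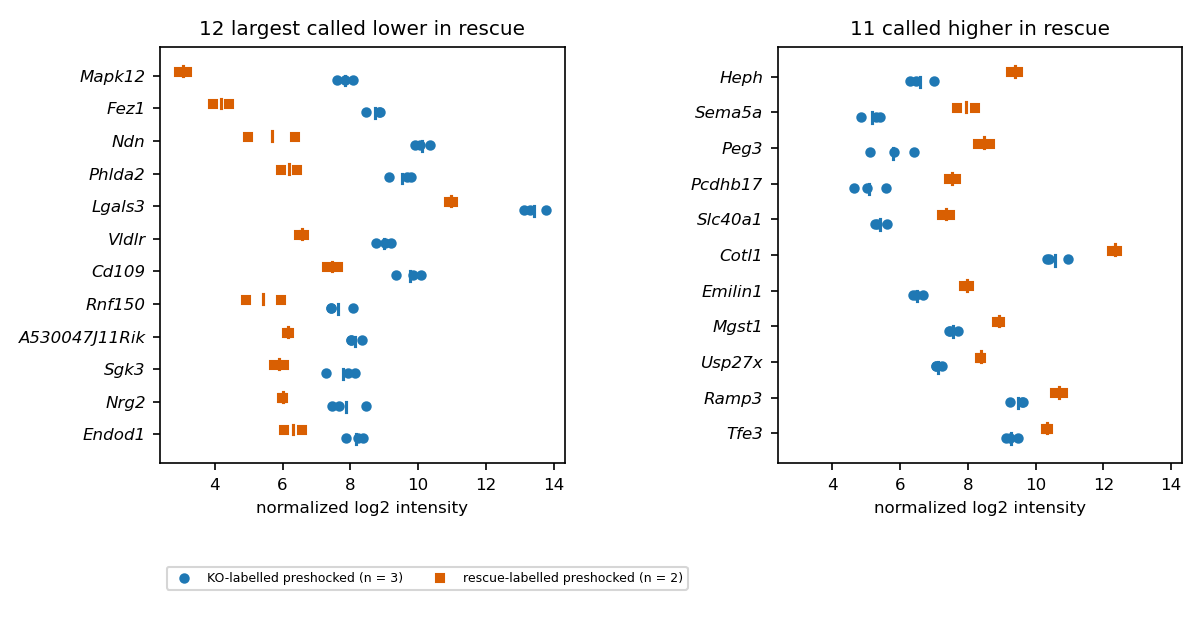
Normalized log2 intensity (horizontal axis) in the 5 preshocked arrays of the 12 largest called differences lower in rescue (left) and all 11 called higher in rescue (right), with squares for rescue-labelled arrays, circles for KO-labelled arrays and short bars for group means. The squares lie apart from the circles in every row, by the widest margin for Mapk12 and Fez1.

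The largest differences were signals near the array's lower end in rescue and clear in KO. Mapk12, which encodes the stress-activated kinase p38 gamma, had intensities of 5.48 and 7.60 in the rescue arrays and 239, 226 and 237 in the KO arrays. The groups were far apart and each was tight, and the difference was -4.79 ± 0.37 (SE) on the log2 scale (adjusted p = 0.00376). Fez1, a kinesin adaptor of axonal transport, had 12.1 and 17.2 in rescue and 392, 442 and 411 in KO arrays, a difference of -4.54 ± 0.37 (adjusted p = 0.00388). The rescue values of both genes lie below the lowest mean of any gene tested (5.65 on the log2 scale), so the size of these differences is less certain than their direction. The same holds for 6 of the 37 genes, counted by the mean of their lower group. Both Mapk12 probe sets were lower in rescue, and Fez1 has 1 probe set.

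Imprinted genes, which are expressed from 1 parental copy, held 3 of the calls. Of 16 tested, 2 were lower and 1 was higher in rescue, and their median was -0.10. Over all genes tested, 0.238% were called lower and 0.101% higher. The list was chosen with earlier results of these data known, so its count is only a description. Ndn, the paternally expressed gene of the growth suppressor necdin, had intensities of 25.3 and 69.7 in the preshocked rescue arrays against 985, 1042 and 1268 in the KO arrays. That is a difference of -4.43 ± 0.56 (adjusted p = 0.0335), and all 8 of its probe sets were lower in rescue. Phlda2, a maternally expressed pleckstrin-homology protein that restrains placental growth, had 48.7 and 71.7 in rescue and 590, 797 and 815 in KO arrays. Its difference was -3.36 ± 0.26 (adjusted p = 0.00376). Peg3, a paternally expressed zinc finger gene, went the other way, with 362 and 314 in rescue and 127, 35.4 and 48.6 in KO arrays, the highest KO value being in replicate 1. Its difference was 2.70 ± 0.38 (adjusted p = 0.0429; 0.058 with the pair block, which ends the call), and 3 of its 5 probe sets were higher in rescue.

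The promoters of these 3 genes are shown with their CG dinucleotides, the sites of DNA methylation, in capitals. They lie at chr7:62348027-62348326 on the plus strand (Ndn, 11 CG), chr7:143502475-143502774 on the minus strand (Phlda2, 26 CG) and chr7:6730370-6730669 on the minus strand (Peg3, 13 CG), in GRCm38.p6 from RefSeq. The median promoter of the same length holds 7 CG over the whole table and 21 over the tested genes. Methylation was not measured here.
Ndn: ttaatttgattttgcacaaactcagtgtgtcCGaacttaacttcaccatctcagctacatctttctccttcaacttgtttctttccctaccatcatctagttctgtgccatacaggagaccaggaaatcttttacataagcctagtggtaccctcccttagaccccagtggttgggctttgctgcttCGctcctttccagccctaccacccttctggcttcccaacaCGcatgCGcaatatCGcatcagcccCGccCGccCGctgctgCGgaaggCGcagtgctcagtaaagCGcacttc
Phlda2: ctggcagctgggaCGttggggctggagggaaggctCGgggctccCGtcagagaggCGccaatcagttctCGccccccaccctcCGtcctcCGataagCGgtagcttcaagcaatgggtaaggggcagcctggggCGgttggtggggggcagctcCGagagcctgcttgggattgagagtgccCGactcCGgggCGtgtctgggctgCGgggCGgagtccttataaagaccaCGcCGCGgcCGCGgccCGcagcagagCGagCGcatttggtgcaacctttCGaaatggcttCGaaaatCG
Peg3: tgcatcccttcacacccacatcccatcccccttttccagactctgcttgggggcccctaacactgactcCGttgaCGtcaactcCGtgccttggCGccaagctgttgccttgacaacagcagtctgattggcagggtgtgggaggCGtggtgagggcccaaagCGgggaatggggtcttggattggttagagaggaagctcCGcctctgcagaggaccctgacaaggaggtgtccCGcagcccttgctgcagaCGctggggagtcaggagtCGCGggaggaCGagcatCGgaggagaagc

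Among iron handling genes, 2 of 15 tested were called, both higher in rescue, and the median of the list was 0.098. Over all genes tested, 0.101% were called higher. This list too was chosen with earlier results of these data known, so its count is only a description. Heph encodes hephaestin, a copper-dependent ferroxidase that oxidises iron as it leaves the cell. Its intensities were 574 and 730 in the rescue arrays and 120, 130 and 76.4 in the KO arrays, a difference of 2.79 ± 0.25 (adjusted p = 0.00612). Slc40a1 encodes ferroportin, the iron exporter through which that iron passes. It had 130 and 166 in rescue and 62.9, 41.0 and 42.4 in KO arrays, a difference of 1.97 ± 0.25 (adjusted p = 0.0335). Its second probe set differed by 0.30 (adjusted p = 0.873 over all probe sets), with overlapping intensities of 39.9 and 81.7 in rescue and 107, 59.5 and 39.4 in KO arrays, so this result rests on 1 of 2 probe sets.

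Cell adhesion genes changed in both directions. Of 15 tested cadherins and protocadherins, 1 was called higher and 1 lower, with a median of -0.025. The choice of this list was also made with earlier results of these data known. Pcdhb17, a clustered beta protocadherin, had 150 and 187 in rescue and 77.4, 24.9 and 28.7 in KO arrays (difference 2.47 ± 0.33, adjusted p = 0.0429, 0.0721 with the pair block). Genes of this cluster resemble each other, so its single probe set may read relatives too. Pcdh9 had 70.1 and 90.4 in rescue and 243, 195 and 193 in KO arrays (difference -1.12 ± 0.16, adjusted p = 0.0429, 0.058 with the block). Cdh11, the cadherin of mesenchymal cells, showed a larger gap that narrowly missed the threshold, with 24.0 and 47.7 in rescue and 537, 1799 and 1387 in KO arrays (difference -4.69 ± 0.74, adjusted p = 0.0510). The 3 KO values of Cdh11 were spread widely, with replicate 1 the lowest.

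Other cell-surface, matrix and secreted products lower in rescue were led by Lgals3, the gene of the sugar-binding protein galectin-3. It was among the more abundant transcripts, at 2086 and 1956 in rescue and 11366, 9210 and 11924 in KO arrays (difference -2.45 ± 0.26, adjusted p = 0.0136). Vldlr, a receptor for lipoproteins and reelin, had 72.9 and 85.5 in rescue and 471, 499 and 524 in KO arrays (difference -2.43 ± 0.25, adjusted p = 0.0136), and 5 of its 6 probe sets were lower. It was the only call among 20 genes of the ATF4 and integrated stress response list, whose median was -0.073. Cd109, a membrane-anchored TGF-beta co-receptor, had 135 and 187 in rescue and 682, 1048 and 849 in KO arrays (difference -2.28 ± 0.33, adjusted p = 0.0429). Timp3, a matrix-bound metalloproteinase inhibitor, had 353 and 518 in rescue and 1217, 1073 and 1315 in KO arrays. Its difference was -1.44 ± 0.22 (adjusted p = 0.0454, 0.0721 with the block), and it was the only call among 16 metalloproteinases and inhibitors (median -0.19). Nrg2, an ErbB receptor ligand, had 51.5 and 51.6 in rescue and 387, 175 and 178 in KO arrays (difference -1.86 ± 0.29, adjusted p = 0.0454, 0.0904 with the block). Only 1 of 3 Nrg2 probe sets was lower in rescue, so this direction depends on the probe set used.

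Surface and matrix products higher in rescue included Sema5a, an axon guidance semaphorin, with 178 and 290 in rescue and 64.0, 43.4 and 25.5 in KO arrays. Its difference was 2.76 ± 0.28 (adjusted p = 0.0136), and all 4 probe sets were higher. Emilin1, an elastic fibre glycoprotein, had 230 in both rescue arrays and 132, 85.5 and 88.3 in KO arrays (difference 1.45 ± 0.18, adjusted p = 0.0303). Ramp3, the partner of the calcitonin receptor-like receptor, had 1502 and 1821 in rescue and 801, 586 and 724 in KO arrays (difference 1.20 ± 0.17, adjusted p = 0.0429). None of the KO arrays reached the rescue values of these 3 genes. The rescue values were close to each other for Emilin1 and Ramp3 and further apart for Sema5a.

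Inside the cell, Cotl1, an F-actin-binding protein of the cofilin group, was the most abundant gene called higher. It had 5162 and 5494 in rescue and 1972, 1329 and 1257 in KO arrays (difference 1.76 ± 0.26, adjusted p = 0.0429), with all 6 probe sets higher. Acta1, skeletal muscle actin, was lower, with 183 and 155 in rescue and 664, 560 and 451 in KO arrays. Its difference was -1.60 ± 0.20 (adjusted p = 0.0335, 0.0833 with the block), and it was the only call among 21 actin cytoskeleton and SRF target genes (median 0.032). Normalized values of 13 muscle markers, summed on the linear scale, ran from 18262 to 21137 in rescue and from 22390 to 26306 in KO arrays. Most of each sum came from smooth muscle actin, Acta2 (log2 means of 13.67 in rescue and 14.10 in KO arrays). Tnnt2, another abundant marker of this list, went the other way (12.56 and 12.38). Of the 6 muscle markers tested, 2 were above 0. The smooth muscle myosin Myh11 was near the lower end of the scale in both lines (group means of 3.93 and 3.68 on the log2 scale), and the part of muscle-like cells in these values was not tested. In pooled cells, fewer cells of a type and less RNA per cell cannot be told apart.

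The remaining genes called higher were Mgst1, a membrane glutathione transferase (1.35 ± 0.21), Usp27x, an X-linked deubiquitinase (1.25 ± 0.18), and Tfe3, a transcription factor of lysosome genes (1.05 ± 0.16). Each of these 3 lost its call with the pair block. Mgst1 has 2 probe sets, which went in opposite directions. Among the 12 largest lower, Rnf150, a RING finger gene, differed by -2.21 ± 0.32, and A530047J11Rik, a transcript with no assigned function, by -1.96 ± 0.21. Sgk3, a kinase of the phosphoinositide 3-kinase pathway, differed by -1.89 ± 0.29 and Endod1, an endonuclease-domain gene, by -1.86 ± 0.24. Of these 4, only A530047J11Rik kept its call with the block.

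Beyond the 12 largest, 14 genes were called lower, of which Acta1, Timp3 and Pcdh9 are given above. The other 11 had differences from -1.76 to -1.01 and are named although they fall outside the naming rule. They were Tmem45a, Kctd15, Adgrf5, Bicc1, Ifitm10, Tspan12, Sqor, Gpc4, Pkn3, Itga6 and Hs6st2. Itga6, the laminin-binding integrin alpha 6, had 1706 and 2250 in rescue and 3691, 4262 and 4299 in KO arrays. The glypican Gpc4 carries the surface polysaccharide heparan sulfate, which the sulfotransferase Hs6st2 modifies. They had differences of -1.12 ± 0.17 and -1.01 ± 0.14 with the probe sets used. The second Gpc4 probe set differed by -0.47 (-1.76 to 0.83). Of the 4 Hs6st2 probe sets, 3 were lower and 1 went in the opposite direction (0.59, -1.54 to 2.71). The mitochondrial sulfide oxidase gene Sqor differed by -1.17 ± 0.17 with the probe set used, and its other probe set went in the opposite direction. Kctd15 was the only gene of these 11 that kept its call with the block. Over all 37 genes, 22 lost their call with it, at adjusted p-values from 0.058 to 0.172.

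By chromosome, in the RefSeq annotation of GRCm38.p6, 36 of the 37 genes had a position. The X chromosome held 5 of them (13.9%, against 3.21% of the genes tested), namely Gpc4, Heph, Hs6st2, Tfe3 and Usp27x. Chromosome 7 also held 5 (13.9%, against 7.42%), namely Ifitm10, Kctd15, Ndn, Peg3 and Phlda2. These shares are descriptions, and the genes went in both directions on both chromosomes.

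Most of the line differences of heated cells were also present without heat. All 37 genes differed in the same direction in the unheated arrays, and 21 of them were called there too. That is 56.8% of the 37 and 45.7% of the 46 genes (0.421%) called between the unheated lines. The arrays of both comparisons are separate, but each preshocked array has an unheated partner with an adjoining number. Such pairs deviated together (correlations from 0.370 to 0.721, where both rescue pairs must share the value 0.370). Mapk12 differed by -4.45 ± 0.37, Fez1 by -4.71 ± 0.37, Phlda2 by -3.52 ± 0.26 and Heph by 3.01 ± 0.25 between the unheated lines, each at an adjusted p of 0.00336. Ndn differed by -5.26 ± 0.56 (adjusted p = 0.0146), Lgals3 by -2.83 ± 0.26 (0.00508) and Peg3 by 2.37 ± 0.38 (0.0477). These differences were thus about as large without the preshock as with it.

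**Figure D3:**
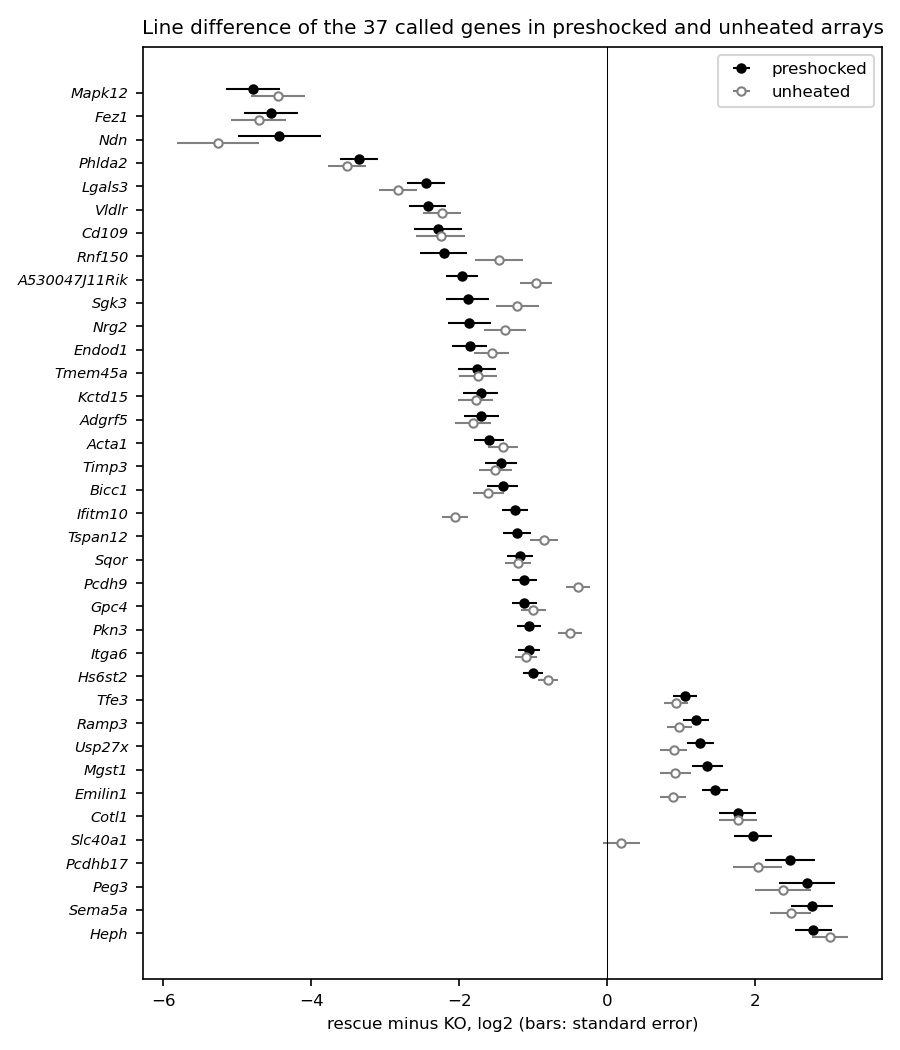
Rescue minus KO difference on the log2 scale (horizontal axis) of the 37 genes called between the preshocked lines, with filled points for preshocked and open points for unheated arrays and bars of 1 standard error. Open and filled points lie on the same side of 0 for every gene, and the largest gaps between them are those of Slc40a1, A530047J11Rik and Ndn.

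The test of whether the line difference changed with the preshock called 0 of 10916 genes by limma (0%), with 103 (0.944%) at an unadjusted p under 0.05, among them 5 of the 37. With the pairs as a random block 0 were called as well, with 664 (6.08%) at an unadjusted p under 0.05, among them 11 of the 37, and a lowest adjusted p of 0.0971. Slc40a1 had the smallest p among the 37 (0.000933, adjusted p = 1; 1.24e-05, adjusted p = 0.0971 with the block), with a change in line difference of 1.78 ± 0.36. Its unheated intensities were 110 and 57.8 in rescue and 85.9, 89.2 and 113 in KO arrays, so the lines overlapped before heat and were apart after it, and its second probe set gave a change of 0.93. With the first probe set, ferroportin signal was 0.84 higher on the log2 scale after preshock in rescue and 0.94 lower in KO. Gm17753 and Zfp787, neither called between the preshocked lines, had the next positive values at 2.20 ± 0.50 (unadjusted p = 0.00204) and 1.64 ± 0.40 (0.00304). The negative values with the smallest p were Serhl at -1.60 ± 0.45 (0.00681), Gm29538 at -1.68 ± 0.49 (0.00826) and A530047J11Rik at -0.998 ± 0.30 (0.00989). Without the block all 6 had an adjusted p of 1, and none was called with it, so none of the line differences can be called particular to heated cells.

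**Figure D4:**
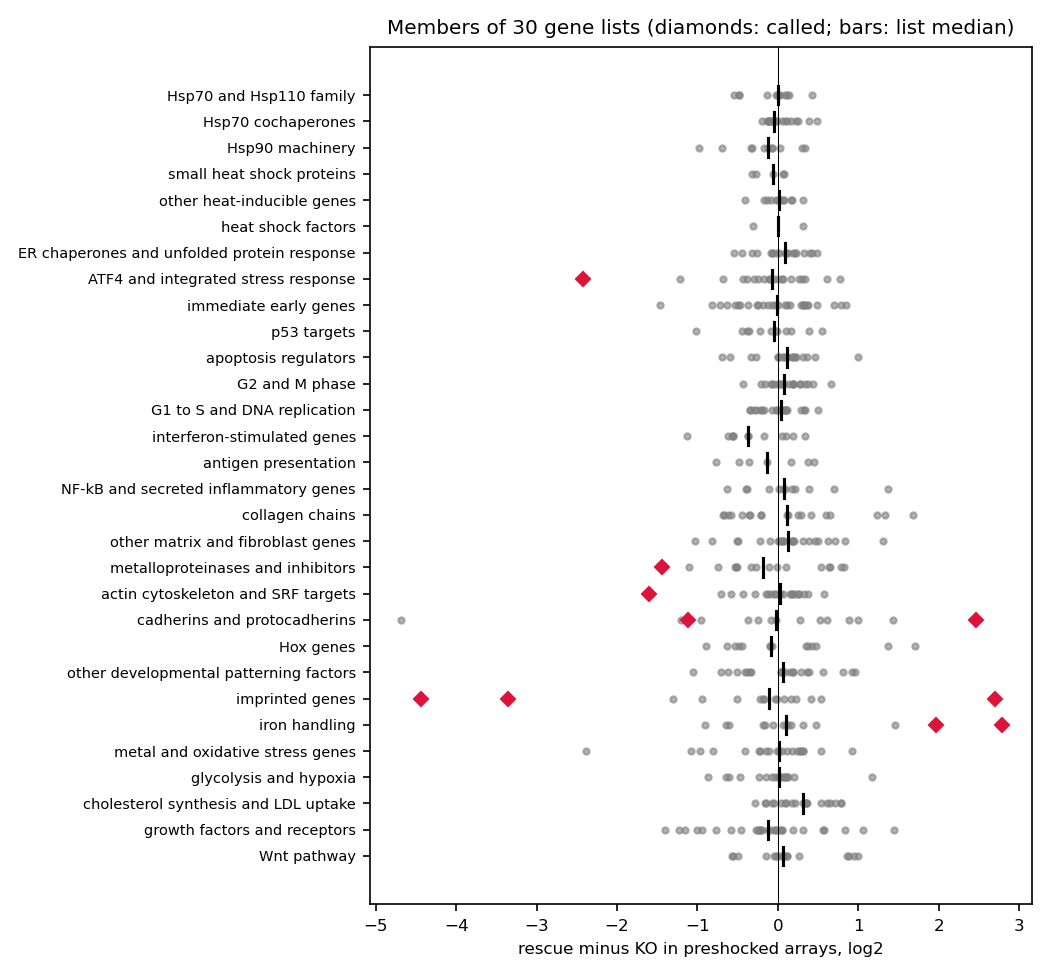
Rescue minus KO difference in the preshocked arrays on the log2 scale (horizontal axis) of each tested member of 30 gene lists (vertical axis), with diamonds for called genes, circles for the rest and a bar at each list's median. The chaperone lists at the top hold no diamond and have medians from -0.12 to 0.0029 in the first 4 rows, while imprinted and iron handling genes hold 3 and 2 diamonds. The lists were chosen with earlier results of these data known, so the number of diamonds in a list is only a description.

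Lists outside the chaperone system held few calls. Cholesterol synthesis and LDL uptake had 0 of 21 called, though 16 were above 0, 8 did not overlap upwards (against 16.6% of all genes), and the median was 0.31. Hmgcs1, the enzyme that makes HMG-CoA for this pathway, differed by 0.79 ± 0.19 (adjusted p = 0.156) and Hsd17b7 by 0.78 ± 0.24 (adjusted p = 0.221). Interferon-stimulated genes leaned the other way, with 0 of 12 called and a median of -0.37. Among them Iigp1, an immunity-related GTPase, differed by -1.13 ± 0.49 (adjusted p = 0.356). Relative to the median of all genes, the cholesterol list stood at 0.31 to 0.33 and the interferon list at -0.40 to -0.36 under the 3 scalings tried. Centring on the median shifts all genes of an array alike, so it must give the same relative values as the deposited scaling. No member of either list passed the test, and the lists were not tested as sets.

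Among 28 immediate early genes, 0 were called and the median was -0.014. Egr3, a zinc finger transcription factor of this group, had 487 and 326 in rescue and 1676, 1060 and 753 in KO arrays, a difference of -1.46 ± 0.37 (adjusted p = 0.167). Klf2 had 338 and 457 in rescue and 269, 230 and 197 in KO arrays (0.85 ± 0.21, adjusted p = 0.159). The groups did not overlap for either gene, but their spread left both short of a call. Of 12 p53 targets, 19 apoptosis regulators, 21 genes of G2 and M phase and 22 of G1 to S and DNA replication, 0 were called. Casp9, the initiator caspase of the mitochondrial pathway, differed by 0.996 ± 0.34 (adjusted p = 0.269).

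Fibroblast matrix genes held no call among 19 collagen chains (median 0.11) or 24 other matrix and fibroblast genes (median 0.12). Col4a2, a basement membrane collagen, had 1386 and 1654 in rescue and 886, 472 and 450 in KO arrays (1.33 ± 0.33, adjusted p = 0.159). Lox, the enzyme that cross-links collagen and elastin, had 2275 and 2616 in rescue and 4261, 4039 and 4495 in KO arrays (-0.81 ± 0.15, adjusted p = 0.0821). Growth factors and receptors held 0 calls among 29, with Kitl, the ligand of the Kit receptor, at -1.23 ± 0.22 (adjusted p = 0.0658) and Pgf, placental growth factor, at 1.45 ± 0.30 (adjusted p = 0.105). Both of these were called between the unheated lines, Kitl at -1.50 ± 0.22 (adjusted p = 0.0346) and Pgf at 2.23 ± 0.30 (adjusted p = 0.0303). Metal and oxidative stress genes held 0 calls among 21, although Aldh3a1, an aldehyde dehydrogenase, had 55.1 and 77.9 in rescue against 800, 270 and 290 in KO arrays (-2.38 ± 0.52, adjusted p = 0.118).

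Positional genes that fibroblasts keep from their site of origin also held no call. Among 14 tested Hox genes the median was -0.085, with Hoxb9 at 1.37 ± 0.54 (adjusted p = 0.314) and Hoxb3 at -0.53 ± 0.19 (adjusted p = 0.290). Among 22 other developmental patterning factors the median was 0.067. Foxd1, a forkhead factor, was nearest to a call, with 480 and 619 in rescue and 339, 268 and 280 in KO arrays (0.93 ± 0.17, adjusted p = 0.0729). Of 18 Wnt pathway genes, 0 were called (median 0.059), and the receptor gene Fzd3 differed by 0.86 ± 0.16 (adjusted p = 0.0846).

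Fibroblast markers gave signal in both lines but were uneven, and they do not settle the cell type. Log2 means in rescue and KO arrays were high for Vim (15.18 and 15.11), S100a4 (14.73 and 14.56) and Col1a2 (13.49 and 13.70). They were lower for Thy1 (7.08 and 6.24), Dcn (7.02 and 7.53) and Lum (4.80 and 5.07). Marker sums are of normalized values on the linear scale, not of deposited intensities. The 13 fibroblast markers summed to 90919 to 105583 in rescue and 93221 to 100231 in KO arrays. Of the 12 tested, 0 differed by the test. Summed epithelial markers were at 364 to 442 and 343 to 978, and endothelial markers at 519 to 632 and 612 to 662. Macrophage and leukocyte markers summed to 1057 to 1185 and 899 to 1261. Neural and glial markers summed to 5498 to 6355 and 5202 to 5827. Of the 7 neural and glial markers tested, 0 were called and 2 were above 0, with a median of -0.14. Sox2 signal had a log2 mean of 11.79 in rescue and 11.02 in KO arrays, while Tubb3 (5.28 and 8.14) and Nes (9.59 and 10.44) went the other way.

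Array quality touches these results at a few points. KO preshocked replicate 1 and its unheated partner, KO unheated replicate 3, had median intensities of 100 and 107, against 50.7 to 73.7 in the other 8 arrays, and stood apart on the first principal component. Without both, 63 genes were called (34 higher, 29 lower), 22 of them among the 37. The preshocked arrays correlated at 0.930 to 0.974 within KO, 0.975 within rescue and 0.926 to 0.964 between the lines, and KO replicate 1 correlated less with its own group (0.930 and 0.952) than the other KO arrays did with rescue (0.957 to 0.964). The 18S ribosomal control signal differed by -1.92 on the log2 scale, rescue minus KO, for its 3' probe set (exact permutation p = 0.2, two-sided, the smallest that 2 against 3 arrays can give). It differed by -2.15 for the middle probe set (exact permutation p = 0.2) and by -1.29 for the 5' probe set (exact permutation p = 0.6). With the 5' probe set the groups overlapped, at 7.80 and 10.45 in rescue and 10.19, 10.74 and 10.32 in KO arrays. The 3' to 5' log2 differences of Gapdh and Actb differed by 0.029 (exact permutation p = 0.8) and -0.018 (exact permutation p = 1) between the lines. Whether the ribosomal signal has a part in any gene difference was not tested.

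**Figure D5:**
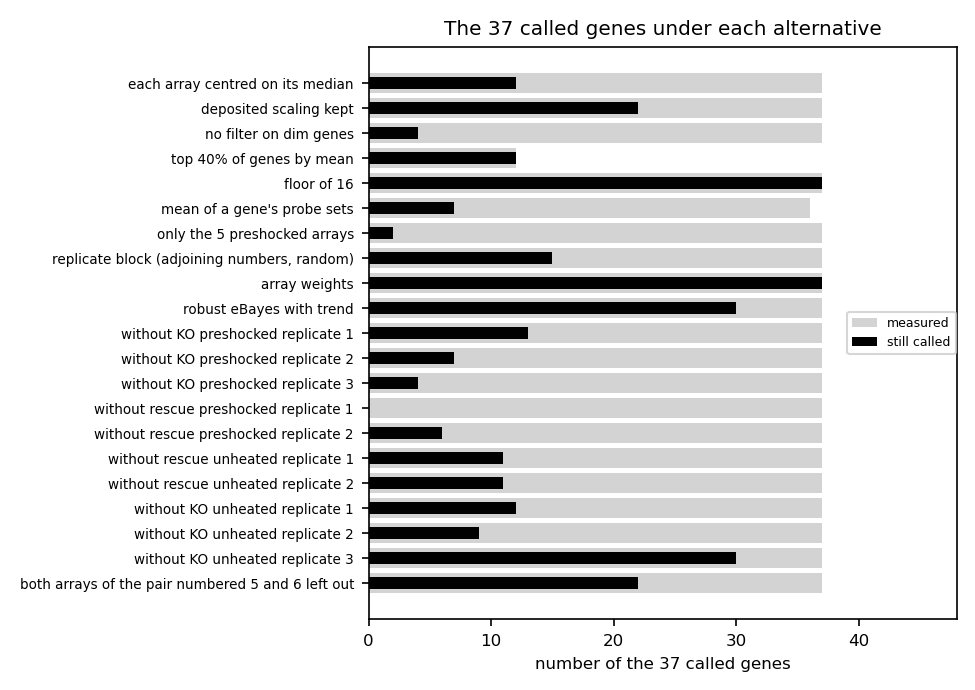
Number of the 37 genes measured (grey bars) and still called (black bars) under each alternative processing or left-out array (vertical axis). The black bars range from 0 without rescue preshocked replicate 1 to 37 with a floor of 16 or array weights.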

How the data were processed

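RNA was measured on Affymetrix mouse arrays. The authors deposited a linear intensity for each of 45101 probe sets; the summarisation software is not given in the sources. Each array's mean, trimmed by 2% at each end, was 500.003 to 500.004. The array medians differed by up to 1.08 (log2), so values were floored at 1 and quantile normalized. Of the probe sets, 64 were controls, 34945 had 1 gene symbol, 932 several and 9160 none. Each of 18193 genes was represented by its probe set of highest mean, and the top 60% (10916) were tested. A limma model (version 3.58.1, R 4.3.3, statmod 1.5.0) with a mean for each of 4 groups over all 10 arrays gave differences, standard errors and 95% intervals. Benjamini-Hochberg adjustment ran over the 10916 genes, and genes were called at an adjusted p under 0.05.

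Arrays with adjoining numbers were taken as pairs, because every pair's correlation of deviations was over 0.1 (0.370 to 0.721). The labels do not say what the numbers mean. Deviations of the rescue arrays within a group are equal and opposite, so both rescue pairs must give the same value (0.370). The rescue pairs are therefore not separate evidence for the pairing. A random block for pairs (consensus correlation 0.716) was an alternative, beside other scaling, filters, floor, probe set rule, array weights, robust fit and leaving out each array. Genes named were picked from the 12 largest called each way that do not overlap. From each list, up to 4 called members with the smallest adjusted p were taken. Where a list held no call, fewer were taken, by smallest p, and not all of them are named. The lists, like the comparison itself, were chosen with earlier results of these data known. Other genes are said to be outside that rule. No detection calls or depth are given, so the number of arrays limits the precision. The procedure was tested on simulated data in which every array was drawn independently. That test lacks the correlation of pairs, so it does not bear on the calls lost with the block.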

Additional observations from a re-analysis of the deposited data

Results flagged for a closer look

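Changes within pairs were looked up for 121 picked genes, not all of them named here. In 10 of these (8.26%), the preshock change had 1 sign in both rescue pairs and the opposite sign in all 3 KO pairs. Of all 10916 genes tested, 379 (3.47%) showed such opposite signs, and some of the 121 were picked for their change between the lines' responses. Pairs are a preshocked and an unheated array of adjoining numbers, and the values below are the line difference after preshock minus that without heat, on the log2 scale. The value was 1.78 for Slc40a1 (rescue pairs 1.09 and 0.59, KO pairs -0.81, -0.97 and -1.02). It was 2.20 for Gm17753 (1.52 and 0.996 against -0.74, -1.07 and -1.01) and 1.64 for Zfp787 (0.94 and 0.23 against -0.90, -1.18 and -1.08). It was -0.72 for Pcdh9, -0.67 for Sgk3, -0.56 for Pkn3 and -0.36 for Tspan12, where rescue fell and KO rose in each pair. It was 0.50 for the endothelial marker Eng, 0.76 for Cdh11 and -2.71 for Ccdc39. All 10 had an adjusted p of 1 in the test of the difference (limma without the pair block), none was called with the block, and several were picked after their values were seen.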

How the results depend on the processing

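The 37 genes called between the preshocked lines kept their direction under every alternative in which they were measured, except that the mean of a gene's probe sets turned Nrg2 (0.41) and Sqor (0.044, and 0.14 between the unheated lines). The count of calls moved more: 22 with arrays centred on their median, 6 with no filter on dim genes, 23 with the top 40% of genes, 9 with the mean of probe sets, 3 with the 5 preshocked arrays alone and 704 with array weights. The pairing as a random replicate block gave 16, and leaving out both arrays of the pair numbered 5 and 6, chosen after seeing the data, gave 63. Leaving out 1 array at a time gave 0 to 46, the lowest being without rescue preshocked replicate 1, while there were 4 without KO preshocked replicate 3 and 46 were called without KO unheated replicate 3. With 1 rescue array left, its spread is assumed to be that of the other groups. The count was 42 with a floor of 16, 51 with the deposited scaling and 52 with a robust fit.

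Between the unheated lines the 46 calls became 10 with no filter, 20 with the mean of probe sets, 22 with the replicate block, 195 with array weights, 95 without that pair and 5 to 43 with 1 array left out. The difference of line differences gave 1 call with no filter on dim genes and 0 under the other alternatives run. Why the counts moved was not tested, apart from fewer genes or arrays where the alternative itself removes them. Mapk12, Fez1, Phlda2 and Heph lost their call in 1 of 10 such omissions, without rescue preshocked replicate 1 (adjusted p = 0.0637 for each). Of single values, 614 lost a call, 80 gained one and 3 reversed among all alternatives, where a sign change of a value uncalled both times was not counted. With 2 and 3 arrays and no detection calls, the size of differences that end near the lower limit of signal stays uncertain.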

Other observations

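Some of the largest gaps between the preshocked lines were not called, and their genes are named here after their values were seen. B3galnt1, a glycosyltransferase that makes the globoside blood group antigen, had 711 and 642 in rescue and 39.5, 28.1 and 22.0 in KO arrays. Its difference was 4.77 ± 0.84 (adjusted p = 0.0668), and between the unheated lines it was 5.64 (adjusted p = 0.0382). Gpx7, a glutathione peroxidase of the endoplasmic reticulum, had 4.18 and 22.8 in rescue against 166, 129 and 169 in KO arrays (-3.47 ± 0.73, adjusted p = 0.105). Vstm2l had 7.15 and 13.6 against 314, 133 and 39.5 (-3.22 ± 0.66, adjusted p = 0.101), where KO replicate 1 was the highest and replicate 3 the lowest.

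Saysd1 and Ccdc39 also differed by over 3 on the log2 scale in the means, but their groups overlapped. Saysd1 had 60.8 and 110 in rescue and 186, 3.35 and 2.28 in KO arrays. Ccdc39, a dynein arm docking component of cilia, had 49.5 and 2.58 in rescue and 74.8, 234 and 126 in KO arrays, so both arrays of rescue disagreed.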
